A study of Sus scrofa with 12 samples.

Results

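The receptors PTGFR, P2RY1, ADRA1B and CASR, which raise calcium inside cells, were followed in the left ventricle of paced pigs. Each was found by its gene symbol in the annotation of the array, and each had 1 probe set, so the 4 receptors were 4 of 27558 probe sets. The genes were chosen by measured values of these same arrays, since earlier results named PTGFR, P2RY1 and ADRA1B for their difference between paced and control septum. Which value chose CASR is not recorded. For this reason the septum comparison, every comparison that shares its arrays, and all values of CASR are given as descriptions with no test.

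The paced pigs (label EXP) had atrioventricular block made with an ablation catheter and a VDD pacemaker, in which sensed atrial beats trigger pacing of the ventricle. The control pigs (CTL) were the sham group, and per the labels leads were placed on the right ventricular septum and the right atrial appendage of all animals. The pigs were females of 13 months, 6 per treatment and 12 in all, killed 6 months after surgery. Total RNA was measured on 12 arrays in 4 groups of 3, which were paced septum (S EXP), control septum (S CTL), paced free wall (FW EXP) and control free wall (FW CTL). Nothing in the labels ties an array to an animal, so p-values measure only the spread between these arrays.

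These receptors span the membrane 7 times and, when bound, activate G proteins of the Gq family. Gq switches on phospholipase C, which cuts a membrane lipid into inositol trisphosphate (IP3), which releases calcium from internal stores, and diacylglycerol, which activates protein kinase C. PTGFR is the receptor of prostaglandin F2 alpha, P2RY1 a receptor of ADP best known from platelets and endothelium, and ADRA1B an alpha-1 receptor of noradrenaline and adrenaline. CASR senses extracellular calcium itself, belongs to the separate class C of receptors with a large outer domain, and is best known from the parathyroid gland and the kidney. In heart muscle, sustained Gq signalling is a classical drive of myocyte growth.

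All values below are signals on the log2 scale made by RMA (robust multi-array average), so a difference of 1 is a 2-fold difference. The values of different probe sets cannot be set against each other as amounts of RNA. Averaged over the 12 arrays, P2RY1 lay above 88.1% of all probe sets, ADRA1B above 73.7%, PTGFR above 73.3% and CASR above 38.8%. All 4 passed the filter that left out the lowest 25% of probe sets, and 20668 probe sets were tested. The standard deviation within groups was 0.38 for PTGFR, 0.30 for P2RY1, 0.25 for CASR and 0.20 for ADRA1B, against a median of 0.20 over all probe sets tested. PTGFR was thus noisier within groups than 89.7% of probe sets.

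**Figure D1:**
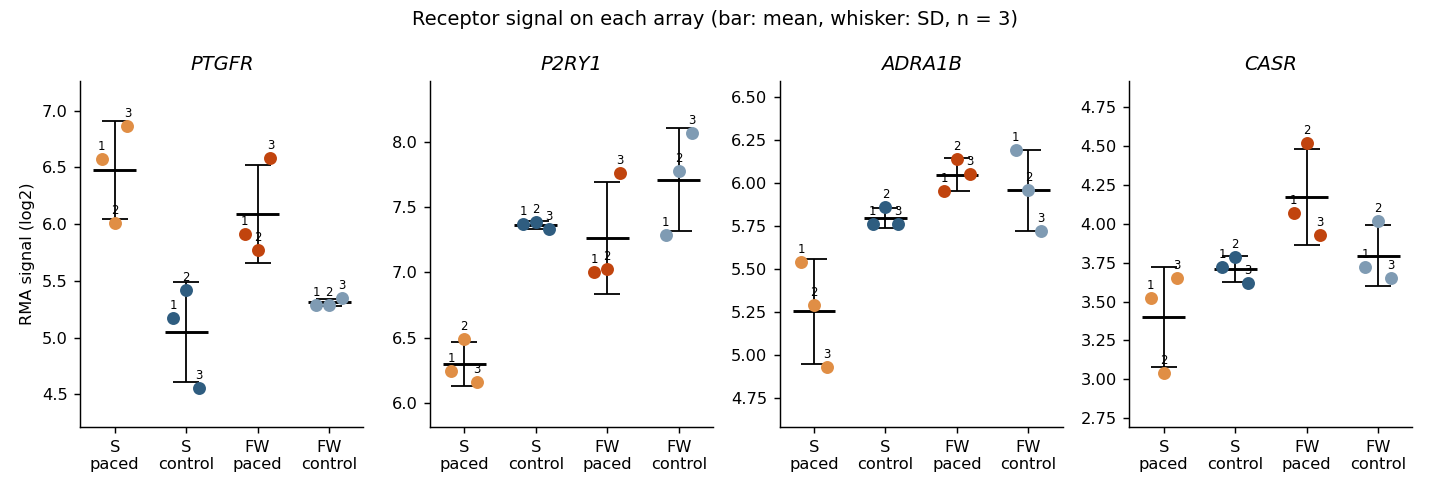
RMA signal (log2, vertical axis, scaled to each gene) of the 4 receptors on every array, with points numbered by the replicate number of the label, lines at the group mean and whiskers of 1 SD (n = 3). PTGFR is higher in paced than control tissue in both regions, while P2RY1, ADRA1B and CASR have their lowest mean in the paced septum.

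PTGFR, the prostaglandin F receptor, was higher in paced than in control muscle in both regions. It read 6.57, 6.01 and 6.86 in the paced septum arrays, against 5.17, 5.42 and 4.56 in the control septum arrays. Free wall readings were 5.91, 5.77 and 6.58 in paced arrays, against 5.29, 5.29 and 5.35 in control arrays. The groups did not overlap in either region, and all 6 paced arrays (5.77 to 6.86) lay above all 6 control arrays (4.56 to 5.42). Such a separation of 6 from 6 arrays, in either direction, was seen for 0.518% of the probe sets tested. These arrays include the septum arrays that chose PTGFR, so the separation is no evidence of its own. Mean signal was 6.48 ± 0.43 in paced septum and 5.05 ± 0.44 in control septum (SD, n = 3 each), a 2.69-fold difference (log2 1.43, SE 0.27). Free wall means were 6.09 ± 0.43 in paced and 5.31 ± 0.03 in control arrays, a 1.71-fold difference (log2 0.78, SE 0.27, 95% limits 0.19 to 1.37). The free wall means took no part in the septum difference, although 1 fit over all 12 arrays gives both regions the same estimate of the spread. In the free wall the difference did not pass the test (limma adjusted p = 0.998 over all probe sets). By size of difference PTGFR was number 24 of 20668 probe sets in the septum and number 183 in the free wall. Free wall paced array 3 gave the highest of the free wall values, and without it the free wall difference was 0.53.

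P2RY1, the ADP receptor, was lower in the paced septum than in any other group. It read 6.24, 6.49 and 6.16 in the paced septum arrays, against 7.37, 7.39 and 7.33 in the control septum arrays. The means were 6.30 ± 0.17 and 7.36 ± 0.03 (SD, n = 3 each), a 2.09-fold lower signal in paced septum (log2 -1.07, SE 0.22). Free wall arrays overlapped, at 7.0, 7.03 and 7.76 in paced and 7.29, 7.78 and 8.07 in control muscle. That difference was -0.45 (SE 0.22, 95% limits -0.94 to 0.04, limma adjusted p = 0.998), and it ranged from -0.70 without free wall paced array 3 to -0.27 without free wall control array 3. Among paced pigs the septum was also below the free wall in every array, with a 1.95-fold lower mean (log2 -0.97, SE 0.22). In control pigs the septum and free wall arrays overlapped, and the difference was -0.35 (SE 0.22). Leaving out the control free wall array numbered 3 gave -0.17, and leaving out number 1 of that group gave -0.56.

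ADRA1B, an alpha-1 adrenergic receptor, was likewise lowest in the paced septum. It read 5.54, 5.29 and 4.93 there, against 5.76, 5.86 and 5.76 in the control septum, so the groups did not overlap. The means were 5.25 ± 0.31 in paced and 5.79 ± 0.06 in control septum (SD, n = 3 each), 1.45-fold lower with pacing (log2 -0.54, SE 0.16). Free wall readings were 5.95, 6.14 and 6.05 in paced and 6.19, 5.96 and 5.72 in control arrays. The paced values there fell inside the control range, and the difference was 0.09 (SE 0.16, 95% limits -0.26 to 0.44, limma adjusted p = 0.998). Its sign turned, to -0.03, without free wall control array 3. Within paced pigs the septum lay below the free wall in all arrays, 1.73-fold on average (log2 -0.79, SE 0.16).

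CASR, the calcium-sensing receptor, differed mainly between the regions of paced pigs. It read 3.52, 3.04 and 3.65 in the paced septum, against 4.07, 4.52 and 3.93 in the paced free wall. These groups did not overlap, and the mean was 3.40 ± 0.32 in paced septum and 4.17 ± 0.31 in paced free wall (SD, n = 3 each), 1.71-fold lower in septum (log2 -0.77, SE 0.19). Paced and control arrays overlapped in both regions, with control values of 3.72, 3.79 and 3.62 in septum and 3.72, 4.02 and 3.65 in free wall. Paced minus control was -0.31 (SE 0.19) in the septum and 0.38 (SE 0.19) in the free wall. Each of these differences leaned on 1 array: without septum paced array 2 the septum value was -0.125, and without free wall paced array 2 the free wall value was 0.20. The 25th percentile of all probe sets lay between 2.91 and 3.13 on the 12 arrays, and septum paced array 2 (3.04) lay within that range.

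**Figure D2:**
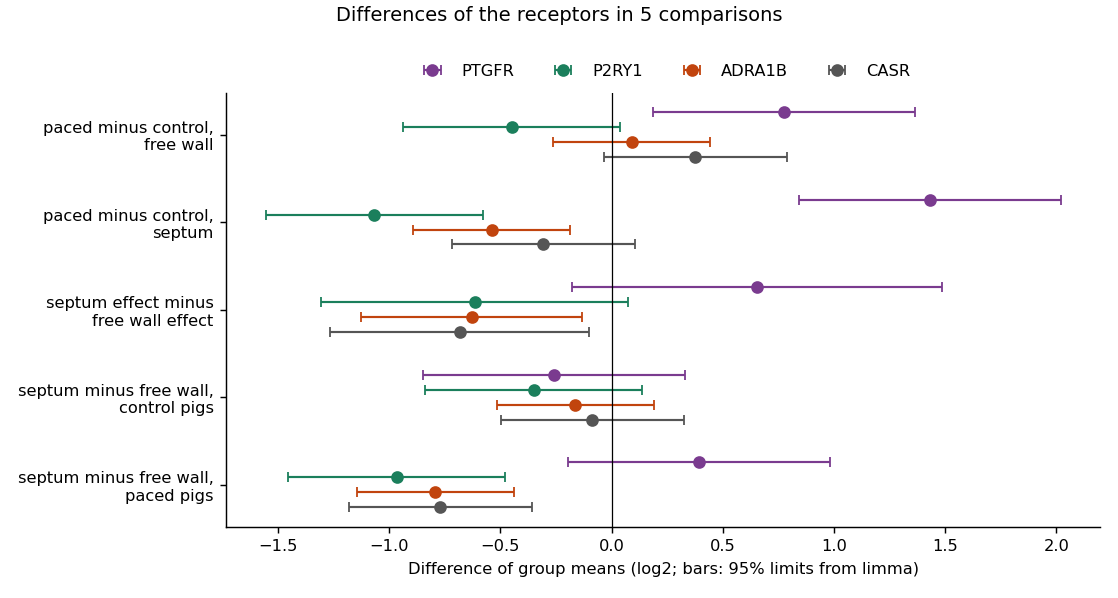
Difference of group means (log2, horizontal axis) of the 4 receptors in 5 comparisons, as points with 95% limits from limma. Only the free wall pacing limits of PTGFR, P2RY1 and ADRA1B belong to a test. The other limits describe precision, and whether they exclude 0 is not read, since measured values of these arrays chose the genes. PTGFR has the highest value in both pacing comparisons and stands apart from the other receptors in the septum, and the other 3 receptors lie together below 0 for septum minus free wall in paced pigs.

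Side by side, the pacing effects took different signs among the receptors. In the septum they were 1.43 for PTGFR, -1.07 for P2RY1, -0.54 for ADRA1B and -0.31 for CASR. In the free wall the order was 0.78, -0.45, 0.09 and 0.38 for the same genes. The effect in septum minus the effect in free wall was 0.65 (SE 0.38) for PTGFR, -0.62 (SE 0.32) for P2RY1, -0.63 (SE 0.23) for ADRA1B and -0.68 (SE 0.27) for CASR, with no test since the septum arrays enter it. Without septum control array 3 the value of PTGFR was 0.41, and without free wall paced array 3 that of P2RY1 was -0.37. The mean level of PTGFR was highest in paced septum, then paced free wall, control free wall and control septum. Paced septum and paced free wall overlapped, and so did both control groups, while the step between paced and control free wall did not. P2RY1 ran from control free wall through control septum and paced free wall to paced septum, where only paced septum was clear of its neighbour. ADRA1B and CASR shared 1 order, paced free wall, control free wall, control septum and paced septum. For ADRA1B only the step to paced septum was free of overlap, and for CASR no pair of neighbours was.

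For pacing in the free wall, where PTGFR, P2RY1 and ADRA1B were tested, 0 of the 3 passed a limma adjusted p under 0.05, and PTGFR was the 1 with an unadjusted p under 0.05. In the other 4 comparisons, and for CASR, the fit also placed no receptor under that threshold, and nothing is read from this since those values chose the genes or share arrays with those that did. Over all probe sets the share called was 0.00484% for pacing in free wall and 0.00968% for pacing in septum. It was 0% for the difference of the effects and for both comparisons of septum with free wall. At an unadjusted p under 0.05, 942, 962, 569, 758 and 1391 probe sets stood in those comparisons, in the order free wall, septum, difference, regions in control and regions in paced pigs. The arrays of the groups compared did not overlap for 3 of 4 receptors for pacing in septum, against 10.5% of all probe sets. The counts were 1 of 4 for pacing in free wall (8.16% of all), 0 of 4 for the regions in control pigs (13.1%) and 3 of 4 for the regions in paced pigs (9.91%). PTGFR, P2RY1 and ADRA1B were chosen by their septum difference and CASR by a value not recorded, with earlier results known. The counts are therefore no evidence of their own.

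**Figure D3:**
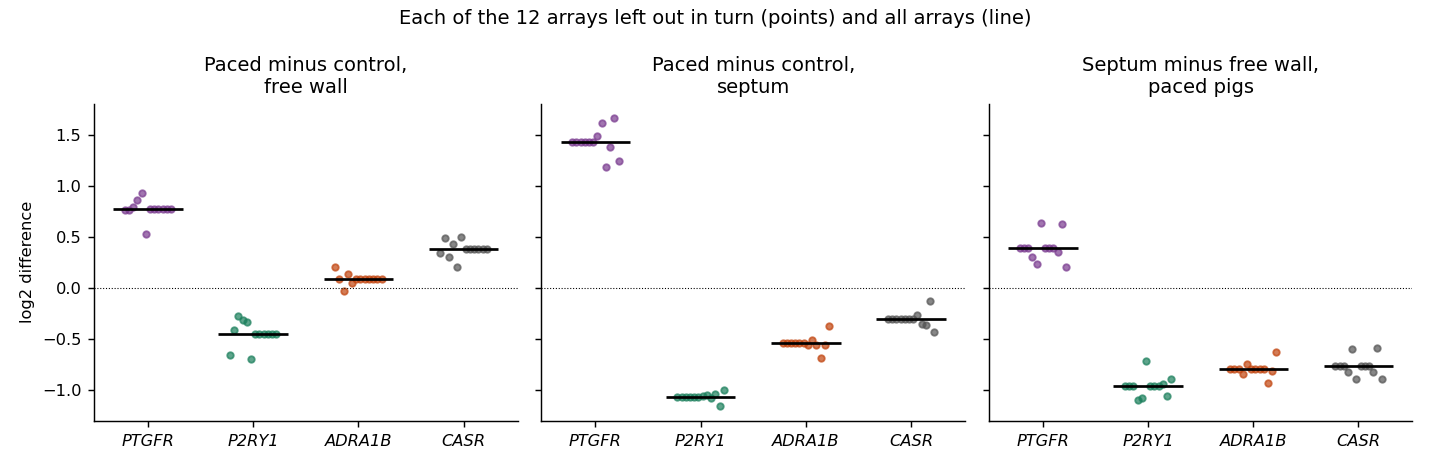
Difference of group means (log2, vertical axis) of each receptor with all 12 arrays (line) and with each array left out in turn (points), for pacing in free wall, pacing in septum, and septum minus free wall in paced pigs. In the septum PTGFR stays between 1.19 and 1.67 and P2RY1 between -1.16 and -0.998, while ADRA1B in the free wall crosses 0.

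Leaving out single arrays changed the septum effect of PTGFR to between 1.19 (without septum control array 3) and 1.67 (without septum paced array 2). For P2RY1 it lay between -1.16 and -0.998, and for ADRA1B between -0.68 and -0.38. On the first principal component free wall paced array 2 was far from the rest (-45.3, the others from -19.2 to 22.3), as were both control arrays with number 1 on the second (27.2 and 24.3). With these 3 arrays left out together, PTGFR differed by 1.49 (SE 0.32) in the septum and 0.93 (SE 0.35) in the free wall. The free wall difference of CASR was then 0.165 (SE 0.22), that of ADRA1B 0.16 (SE 0.19) and that of P2RY1 -0.55 (SE 0.24). Septum differences were then -1.06 (SE 0.22) for P2RY1, -0.56 (SE 0.18) for ADRA1B and -0.30 (SE 0.20) for CASR.

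The genes whose signal ran most like each receptor were taken from the other named probe sets by Pearson's r over the 12 arrays, as a description. The arrays share their 4 groups, so r reflects group differences and spread within groups together. For P2RY1 the closest was CCK, the gene of the peptide cholecystokinin (r = 0.90, and 0.50 for deviations from the group means), whose paced minus control difference was -1.92 in the septum and -0.54 in the free wall. RANBP9 (r = 0.88, deviations 0.33) and ZBTB38 (r = 0.85, deviations 0.52) followed, with septum differences of only -0.25 and -0.23. PTGFR ran with IKBIP (r = 0.94, deviations 0.76), ARV1 (r = 0.93, deviations 0.70) and LACTB2 (r = 0.89, deviations 0.78), whose septum differences were 0.57, 0.44 and 0.63. ADRA1B ran with CHD7, a chromatin remodeller (r = 0.89, deviations 0.37), ZNF239 (r = 0.84, deviations 0.83) and FAM214A (r = 0.82, deviations 0.58). CASR ran with GRIK3, a subunit of kainate-type glutamate receptors (r = 0.84, deviations 0.84). Next came ADRA1D, the alpha-1D adrenergic receptor (r = 0.83, deviations 0.67), and FAM71F2 (r = 0.82, deviations 0.80). Among the receptors themselves, deviations from group means correlated between -0.47 (P2RY1 with CASR) and 0.29 (PTGFR with P2RY1).

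Around the 4 receptors, 235 genes (pathway genes below) were listed by role, as related receptors, parts of Gq signalling, or ligand supply and removal. Not all of the related receptors use Gq. Of the 235 genes, 158 were matched on the array and 133 were tested. None was called in either direction in any of the 5 comparisons (0 of 133), while 3 in the free wall and 6 in the septum had an unadjusted p under 0.05 for pacing. For pacing in the septum 73 of the 133 were above 0 and 59 below, with a median of 0.05, against -0.0033 over all probe sets. For pacing in the free wall 76 were above and 57 below (median 0.04, against 0 over all). Paced and control arrays did not overlap for 12.0% of these genes in the septum and 6.02% in the free wall, close to the shares of all probe sets given above.

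**Figure D4:**
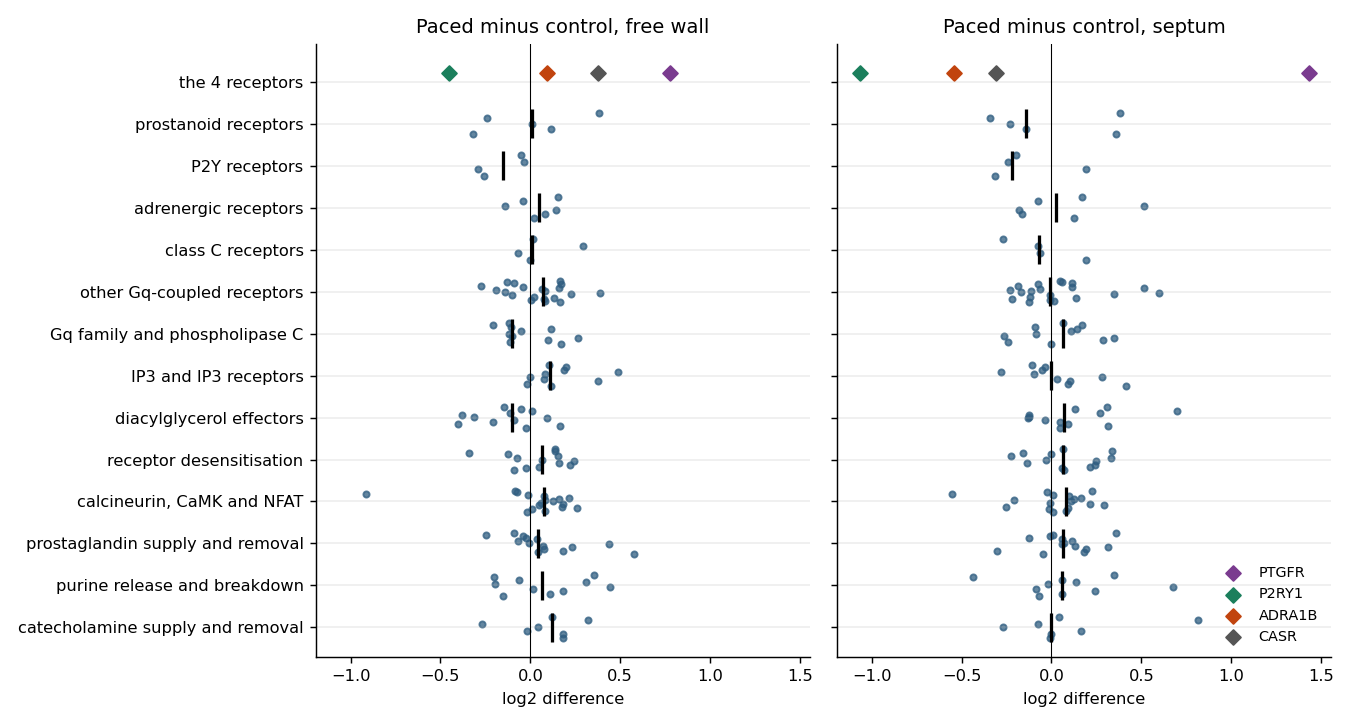
Paced minus control (log2, horizontal axis) in free wall and septum. Points are the 133 tested pathway genes by list, with the list median as a line, and diamonds are the 4 receptors. The list medians lie between -0.22 and 0.12. PTGFR, which was chosen by its septum difference, is beyond every listed gene there.

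The closest relatives tested had septum differences smaller in size than the receptor they resemble. PTGFR, P2RY1 and ADRA1B were chosen by that same difference, so nothing is read from this order. Of 5 other prostanoid receptors 2 were above 0 in the septum. The prostaglandin E receptor PTGER3 differed by 0.38 (SE 0.20) in the septum and by 0.38 (SE 0.20) in the free wall. PTGER2, another prostaglandin E receptor, stood at -0.34 (SE 0.26) and -0.24 (SE 0.26) in the same order. Of 4 other P2Y receptors of nucleotides, 1 was above 0 in the septum and 0 in the free wall. P2RY12, the second ADP receptor and the target of antiplatelet drugs, stood at 0.19 (SE 0.22) in the septum and -0.29 (SE 0.22) in the free wall, and P2RY11 at -0.32 (SE 0.15) and -0.26 (SE 0.15). Among 6 other adrenergic receptors, ADRA1A stood at 0.12 (SE 0.25) in the septum and ADRA1D at -0.16 (SE 0.12). ADRB1, the main beta receptor of the heart, stood at -0.07 (SE 0.16). ADRA2B stood at 0.51 (SE 0.17) in the septum and -0.14 (SE 0.17) in the free wall. It read 3.91, 3.26 and 3.65 in paced septum, against 3.14, 3.26 and 2.88 in control septum, so the groups met at 3.26. These signals were low, as the 25th percentile of all probe sets lay between 2.91 and 3.13. Like ADRA1B, ADRA1D was lower in all septum than in all free wall arrays of paced pigs, at 3.67, 3.40 and 3.65 against 3.97, 3.88 and 3.76. That difference was -0.30 (SE 0.12, limma adjusted p = 0.719). In class C, 4 relatives of CASR were tested, and GRM4, a metabotropic glutamate receptor, had the smallest p in the septum (-0.27, SE 0.17).

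Other receptors that use Gq were mostly near 0. The angiotensin receptor AGTR1 differed by -0.12 (SE 0.19) in the septum and 0.16 (SE 0.19) in the free wall, and the endothelin receptor EDNRA by -0.12 (SE 0.11) and 0.02 (SE 0.11). Of 20 in this list 9 were above 0 in the septum. The lysophosphatidic acid receptor LPAR1 stood highest by p there, at 0.52 (SE 0.22, limma adjusted p = 0.992), followed by F2RL2, a receptor of the thrombin family, at 0.60 (SE 0.29). Their paced and control arrays overlapped. The median septum difference was -0.01 for this list, -0.14 for prostanoid, -0.22 for P2Y, 0.03 for adrenergic and -0.07 for class C receptors. It was 0.06 for Gq and phospholipase C, 0 for IP3 genes, 0.07 for diacylglycerol effectors and 0.08 for calcineurin and its partners. For supply and removal of ligands it was 0.07 for prostaglandins, 0.06 for purines and -0.0033 for catecholamines.

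Supply and removal of the ligands held ABCC4, the pathway gene with the smallest p in the free wall. ABCC4, a pump that exports prostaglandins and cyclic nucleotides, read 6.75, 6.79 and 6.70 in paced free wall, against 6.19, 6.22 and 6.10 in control free wall. The difference was 0.58 (SE 0.11, limma adjusted p = 0.455). Septum readings of ABCC4 were 5.95, 6.25 and 5.95 in paced arrays, against 6.06, 6.11 and 6.12 in control arrays (-0.05, SE 0.11). The cyclooxygenases PTGS1 and PTGS2, which start prostaglandin synthesis, stood at -0.13 (SE 0.13) and -0.01 (SE 0.15) in the septum. PTGFRN, a membrane protein named as a negative regulator of PTGFR, stood at 0.06 (SE 0.28) in the septum and 0.44 (SE 0.28) in the free wall. For nucleotides, the adenosine transporter SLC29A1 read 7.77, 8.07 and 7.96 in paced septum, all below 8.57, 8.18 and 8.36 in control septum (-0.44, SE 0.15, limma adjusted p = 0.992). NT5E, which makes adenosine from AMP, stood at 0.68 (SE 0.32) with overlapping arrays.

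Downstream of the receptors, GNAQ, the alpha subunit of Gq itself, read 7.56, 7.26 and 7.34 in paced septum, against 6.92, 7.20 and 7.18 in control septum. The difference was 0.29 (SE 0.18) and that in the free wall 0.10 (SE 0.18). GNA15, another alpha subunit of the Gq family, went the other way in the septum. It read 3.38, 3.27 and 3.45 in paced arrays, all below 3.48, 3.66 and 3.69 in control arrays. That difference was -0.24 (SE 0.15, limma adjusted p = 0.992). Of 11 genes in the list of Gq and phospholipase C, 6 were above 0 in the septum and 4 below. Phospholipase C beta 1 (PLCB1) stood at 0.35 (SE 0.31) and the IP3 receptor ITPR2, the main form in heart muscle cells, at 0.03 (SE 0.16). ITPR3, another IP3 receptor, read 4.50, 4.24 and 4.39 in paced septum, against 4.14, 4.07 and 4.07 in control septum (0.28, SE 0.11, limma adjusted p = 0.992). ORAI2, also listed with the IP3 genes, was lower in all paced than in all control septum arrays (-0.28, SE 0.31). Of the 10 genes in that list 5 were above 0 in the septum and 5 below. RASGRP2, which calcium switches on to activate Rap, read 5.41, 5.03 and 5.24 in paced septum, against 4.22, 4.63 and 4.73 in control septum. The septum difference of RASGRP2 was 0.70 (SE 0.20, limma adjusted p = 0.959), and its free wall difference was 0.01 (SE 0.20).

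Among the genes that switch receptors off, the receptor kinases GRK5, GRK2 and GRK3 stood at 0.25 (SE 0.12), 0.21 (SE 0.10) and 0.24 (SE 0.12), and paced arrays lay above control arrays for each, with a limma adjusted p of 0.992 for all 3. In the free wall GRK5 alone of the 3 had groups that did not overlap (0.24, SE 0.12). GRK4, another kinase of this list, went the other way in the septum with overlapping arrays. It read 3.88, 3.90 and 4.10 in paced arrays, against 4.02, 4.03 and 4.24 in control arrays. Of 13 genes in this list 8 were above 0 in the septum, and 4 had groups that did not overlap, all higher. Over all probe sets 49.1% were above 0 in the septum and 10.5% had groups that did not overlap in either direction. RGS2, an inhibitor of Gq, stood at -0.23 (SE 0.23) in the septum and 0.15 (SE 0.23) in the free wall. RCAN1, a target and inhibitor of calcineurin, read 6.04, 5.29 and 6.14 in paced free wall, all below 7.20, 6.77 and 6.25 in control free wall (-0.92, SE 0.39, limma adjusted p = 0.998). The reading of 5.29 came from free wall paced array 2 and that of 7.20 from free wall control array 1. Both arrays are among those far from the rest on the principal components, so the size of this difference leans on them. In the septum RCAN1 stood at -0.55 (SE 0.39) with overlapping arrays.

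**Figure D5:**
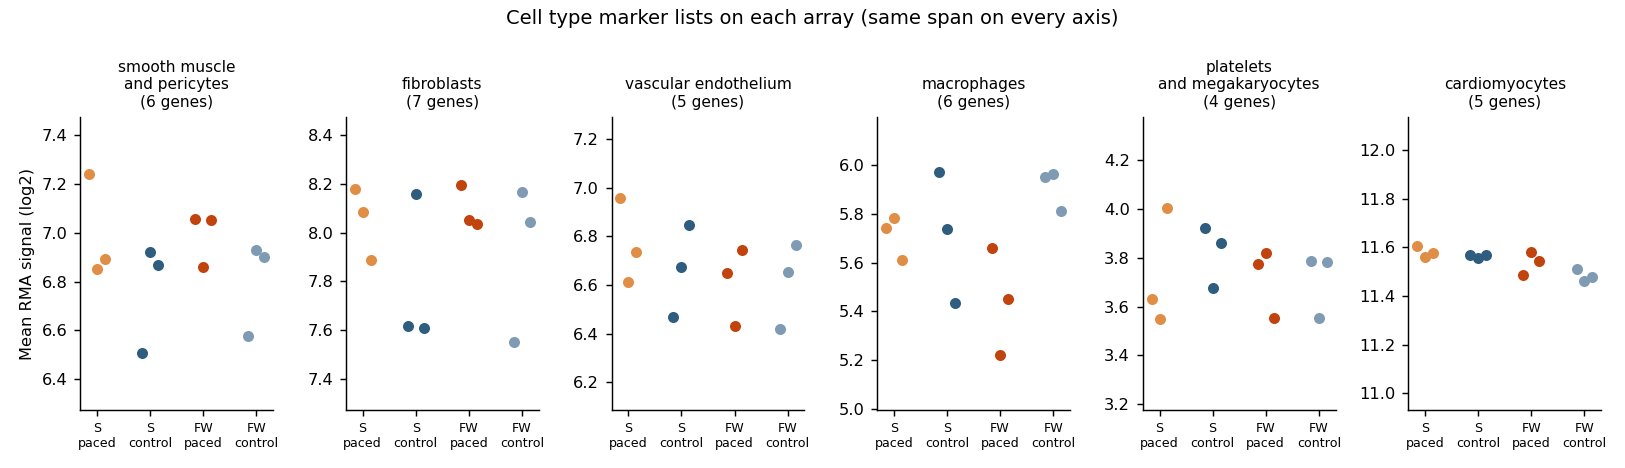
Mean RMA signal (log2, vertical axis, the same span in every panel) of 6 cell type marker lists on each array, by group. Every list shown but the macrophage markers has its highest value in a paced array. Paced and control arrays of a region overlap in every list shown but the macrophage markers of the free wall.

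The tissue carried its label: the 5 tested cardiomyocyte markers averaged 11.46 to 11.61 over the 12 arrays, the lowest of them above 99.4% of probe sets. In bulk muscle, fewer cells of a type and less RNA per cell cannot be told apart. Smooth muscle and pericyte markers, cells in which PTGFR is known to act, averaged 6.85 to 7.24 in paced and 6.51 to 6.92 in control septum, with 4 of 6 above 0. Free wall means of this list were 6.86 to 7.06 in paced and 6.58 to 6.93 in control arrays, with 5 of 6 above 0. Fibroblast markers averaged 7.89 to 8.18 in paced and 7.61 to 8.16 in control septum, with 6 of 7 above 0. Vascular endothelial markers averaged 6.61 to 6.96 in paced and 6.47 to 6.85 in control septum. Platelet markers averaged 3.55 to 4.01 in paced and 3.68 to 3.92 in control septum. The groups overlapped in both lists. Only 4 of 8 platelet markers were tested and their signals were low, the lowest above only 31.5% of probe sets. Platelet content can thus hardly be read from them. Macrophage markers averaged 5.22 to 5.66 in paced and 5.81 to 5.97 in control free wall, with 6 of 6 below 0. For lymphocytes, nerve, adipocytes, erythrocytes and conduction cells, paced and control arrays overlapped in both regions. The part of these cell types in the receptor values was not tested.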

How the data were processed

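The deposited table held log2 values of 12 arrays. Per the submitters' processing notes, the authors ran RMA with Expression Console 1.4 of Affymetrix. RMA corrects background, equalises the distributions of the arrays and combines the probes of a probe set, so small real shifts common to an array are removed. The sources used here name no genome build. A platform table gave 1 gene symbol for 13323 probe sets and several for 357; 7 symbols were updated through RefSeq gene IDs, and 13878 probe sets had no gene. The lowest 25% of probe sets by mean (under a log2 value of 3.00) were left out.

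One mean per group was fitted over all 12 arrays with limma 3.58.1 in R 4.3.3 (8 residual and 3.68 prior degrees of freedom), two-sided, with Benjamini-Hochberg adjustment over the 20668 probe sets. SE is that of a log2 difference. The receptors and the 13 pathway and 11 marker lists were chosen with earlier results of these data known. A list gene was read by its probe set with the highest mean. Named genes were the 4 receptors, the 3 genes most alike to each, a fixed set of relatives and partners (of which P2RY2, PTGIR, GNA11, ITPR1 and GPRC6A were not analysed here), and up to 3 genes per list with the smallest unadjusted p; uncharacterised loci were passed over. The code was tested on simulated data. Figures were drawn with matplotlib 3.10.9. Precision is limited by the number of arrays.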

Additional observations from a re-analysis of the deposited data

How the results depend on the processing

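The alternatives were no filter, leaving out the lower 50% of the probe sets (which left out CASR), fitting only the groups compared, array weights, another variance model, median centring, the number in the labels as a replicate block, and each array left out in turn. Leaving out 3 arrays together was chosen after seeing the data. For pacing in the free wall, where PTGFR, P2RY1 and ADRA1B were tested, 0 of these 3 passed under any of these alternatives, with adjusted p-values from 0.605 to 0.999. Of the receptor differences, 2 turned sign: ADRA1B for pacing in free wall without free wall control array 3 (-0.0283; the range over arrays left out was -0.0283 to 0.207) and CASR for the regions in control pigs without free wall control array 2 (0.025). With the replicate block the paired septum minus free wall difference in control pigs had an SE of 0.188 for PTGFR, and 0 of the 3 receptors tested in the free wall passed. The labels do not say what the numbers stand for: deviations of same-numbered septum and free wall arrays correlated at 0.09, -0.17 and -0.18 in paced pigs and at 0.32, 0.25 and 0.24 in control pigs, and 0 of 6 paced and 6 of 6 control arrays correlated best with their own number. Pathway genes called numbered 0 except in paced septum against paced free wall without septum paced array 2, where ABCC4 passed (1 gene, log2 -0.80, adjusted p = 0.0470; 0 to 1 over arrays left out). The cause was not tested.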
